A study of Homo sapiens with 105 samples.

Results

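The genes of sterol and fatty acid synthesis that answer to the sterol regulatory element binding proteins (SREBPs) were followed in human vaginal epithelial cells. The group held 32 genes chosen by their role in the pathway and not by their signal, though with earlier results of these data known. They were 7 enzymes of the mevalonate arm, 11 of the sterol arm, 6 of fatty acid synthesis, 4 regulators, the sterol carrier STARD4 and 3 targets of the liver X receptors. Of these, 29 had a probeset that names them alone, out of 54613 probesets tested. FDFT1 had no such probeset, and the probesets of CYP51A1 and FADS1 each name another gene as well, so these 3 genes have no value here.

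The cells were Vk2/E6E7, a line from vaginal keratinocytes immortalized with papillomavirus E6 and E7 genes, so every array shows 1 line in culture and no immune or stromal cells. Each treatment lasted 6 h. The inflammatory compounds were TNF-a at 40 ng/ml (n = 5 arrays), the TLR2 ligands Pam3CSK4 at 10 µg/ml (n = 6) and MALP2 at 200 ng/ml (n = 6), the TLR7 ligand imiquimod (IMQ, labelled 30 mg/ml, where the study's methods give the same figure in micrograms; n = 6) and the detergent spermicide nonoxynol-9 (N-9) at 12.5 µg/ml (n = 9). The compounds taken as non-inflammatory were the cellulose polymers HEC and CMC at 1 mg/ml (n = 9 each), and the untreated cells had growth medium only (GM, n = 53). The labels call each array a biological replicate and do not say which arrays were cultured or processed together, and all p-values rest on the spread among arrays.

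SREBPs are made as precursors held in the endoplasmic reticulum by SCAP and INSIG1. When membrane sterol falls, SCAP escorts the precursor to the Golgi, where proteases release the part that enters the nucleus and switches on genes of sterol and fatty acid synthesis, INSIG1 among them. When oxysterols accumulate, liver X receptors switch on the exporters ABCA1 and ABCG1, the ubiquitin ligase MYLIP, and SREBF1 itself. In stratified epithelia these lipids feed the membranes of dividing cells and the barrier between the outer layers.

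Promoters of the 4 genes called higher, as defined below, with both IMQ and N-9 are printed here. They run from 250 bases before to 50 after the start (RefSeq, GRCh38.p14), 5′ to 3′. Capitals mark CACNCCAC, letters found in the core of sterol regulatory elements, and CCAAT, the box bound by NF-Y, a partner of SREBPs; each was searched on both strands. IDI1 has 3 listed starts, and the one with the most matches is shown.
STARD4, chr5:111512486-111512785, minus strand: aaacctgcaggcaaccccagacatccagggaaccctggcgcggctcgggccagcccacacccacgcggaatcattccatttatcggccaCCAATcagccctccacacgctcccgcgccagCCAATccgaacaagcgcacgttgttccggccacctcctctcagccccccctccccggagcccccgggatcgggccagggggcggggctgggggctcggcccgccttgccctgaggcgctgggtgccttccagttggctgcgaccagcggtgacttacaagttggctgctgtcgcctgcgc
INSIG1, chr7:155297628-155297927, plus strand: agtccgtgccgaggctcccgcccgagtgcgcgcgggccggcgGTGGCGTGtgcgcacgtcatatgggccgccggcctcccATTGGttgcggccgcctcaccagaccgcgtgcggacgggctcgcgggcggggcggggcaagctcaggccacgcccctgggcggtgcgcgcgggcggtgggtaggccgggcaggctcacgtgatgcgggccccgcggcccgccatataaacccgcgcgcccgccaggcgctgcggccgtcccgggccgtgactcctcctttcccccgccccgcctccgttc
MSMO1, chr4:165327419-165327718, plus strand: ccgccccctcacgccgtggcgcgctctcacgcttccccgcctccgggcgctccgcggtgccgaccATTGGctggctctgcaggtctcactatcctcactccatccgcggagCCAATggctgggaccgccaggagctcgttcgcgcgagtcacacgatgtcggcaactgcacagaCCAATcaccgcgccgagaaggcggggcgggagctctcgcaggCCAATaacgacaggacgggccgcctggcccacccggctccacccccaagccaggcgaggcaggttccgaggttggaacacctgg
IDI1, chr10:1048837-1049136, minus strand: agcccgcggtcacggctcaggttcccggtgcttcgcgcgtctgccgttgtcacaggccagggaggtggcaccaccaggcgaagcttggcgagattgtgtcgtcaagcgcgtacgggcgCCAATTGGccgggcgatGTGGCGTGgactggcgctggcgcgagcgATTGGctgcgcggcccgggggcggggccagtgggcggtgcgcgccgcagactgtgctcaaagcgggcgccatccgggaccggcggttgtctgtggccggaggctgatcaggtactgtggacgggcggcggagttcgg
STARD4 held 2 CCAAT matches and no CACNCCAC match, INSIG1 held 1 of each, MSMO1 held 4 CCAAT matches, and IDI1 held 1 CACNCCAC match and 3 CCAAT matches, of which 2 overlap on opposite strands. Promoters were listed for 27 of the 32 genes, at 35 starts. CCAAT was found at 23 of these 35 starts (65.7%), against 34.6% of all 35116 promoters in the table. CACNCCAC was found at 8 of the 35 (22.9%), against 5.87% of all promoters. The 35116 promoters were not filtered by chromosome and include those of these genes. A match describes the letters and is not a site of binding.

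In this text a level is the quantile-normalized log2 signal of a gene's brightest probeset, and a change is the log2 difference between a treatment and GM. A gene was called higher or lower where limma's Benjamini-Hochberg adjusted p over all probesets was under 0.05, with no limit on the fold. Arrays of 3 consecutive replicate numbers within a group are called a run here; the labels number the arrays as biological replicates and do not name such runs. Over the 53 GM arrays, in 18 runs, differences between runs held 61.7% to 96.1% of the variance of each gene, with a median of 87.4%, so that arrays of 1 run were much closer to each other than to those of other runs. Calls against GM are therefore given with their adjusted p with the runs as a random block. That block used 1 correlation for all probesets, 0.438. It was under each gene's between-run share over the GM arrays, so the block may correct too little for these genes. All treatments were compared with the same GM arrays, so their changes are not independent of each other.

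The defining keratinocyte markers KRT5, KRT14, DSG3 and CDH1 had group means of 12.3 to 14.8, where the median probeset was at 6.60. The 4 leukocyte markers measured had group means of 3.64 to 7.09, and the 5 fibroblast and endothelial markers 3.76 to 8.32. The 3′ minus 5′ difference of the beta-actin control probesets, a sign of RNA integrity, had a median of 0.764 on the IMQ arrays, against 0.418 on the GM arrays, and between 0.332 and 0.524 in the other treatments. The IMQ arrays of replicates 1 to 3 read 1.32, 0.87 and 1.84, and those of replicates 4 to 6 read 0.659, 0.623 and 0.448. The same difference for GAPDH also split runs, within a GM range of -0.28 to 0.41. It was 0.36 to 0.41 in N-9 replicates 7 to 9 and -0.22 to -0.12 in replicates 1 to 6. In MALP2 it was 0.25 to 0.26 in replicates 1 to 3 and -0.23 to 0.01 in replicates 4 to 6. In IMQ these were 0.26 to 0.34 and -0.18 to -0.16. The part of RNA integrity in calls that rest on these runs was not tested.

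Calls were concentrated in 3 of the 7 treatments. With N-9, 8 of 29 genes were called higher (27.6%, against 7.34% of all probesets) and 6 lower (20.7%, against 10.1%). With IMQ, 5 were called higher (17.2%, against 4.68%) and 3 lower (10.3%, against 6.19%). With MALP2, 1 was called higher (against 3.28% of all probesets) and 7 lower (24.1%, against 3.68%). TNF-a raised 1 gene (0.527% of all probesets called higher and 0.192% lower), and Pam3CSK4 lowered 1 gene (1.31% called higher and 0.859% lower). Bright probesets were called more often than dim ones, and 23 of the 29 genes had a mean level of at least 9. Among the 11995 probesets this bright, 12.1% were called higher and 21% lower with N-9, so that the share of these 23 genes called lower with N-9, 21.7%, was near the background, while the share called higher, 34.8%, was above it. With MALP2, 26.1% of the 23 genes were called lower, against 8.72% of the bright probesets. With IMQ, 21.7% were called higher and 13% lower, against 10.6% and 14.1% of the bright probesets, so the lower share was again near the background. The genes' median change was -0.31 with MALP2, -0.03 with IMQ and -0.04 with N-9, where the bright probesets had medians of -0.04, -0.04 and -0.06.

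**Figure D1:**
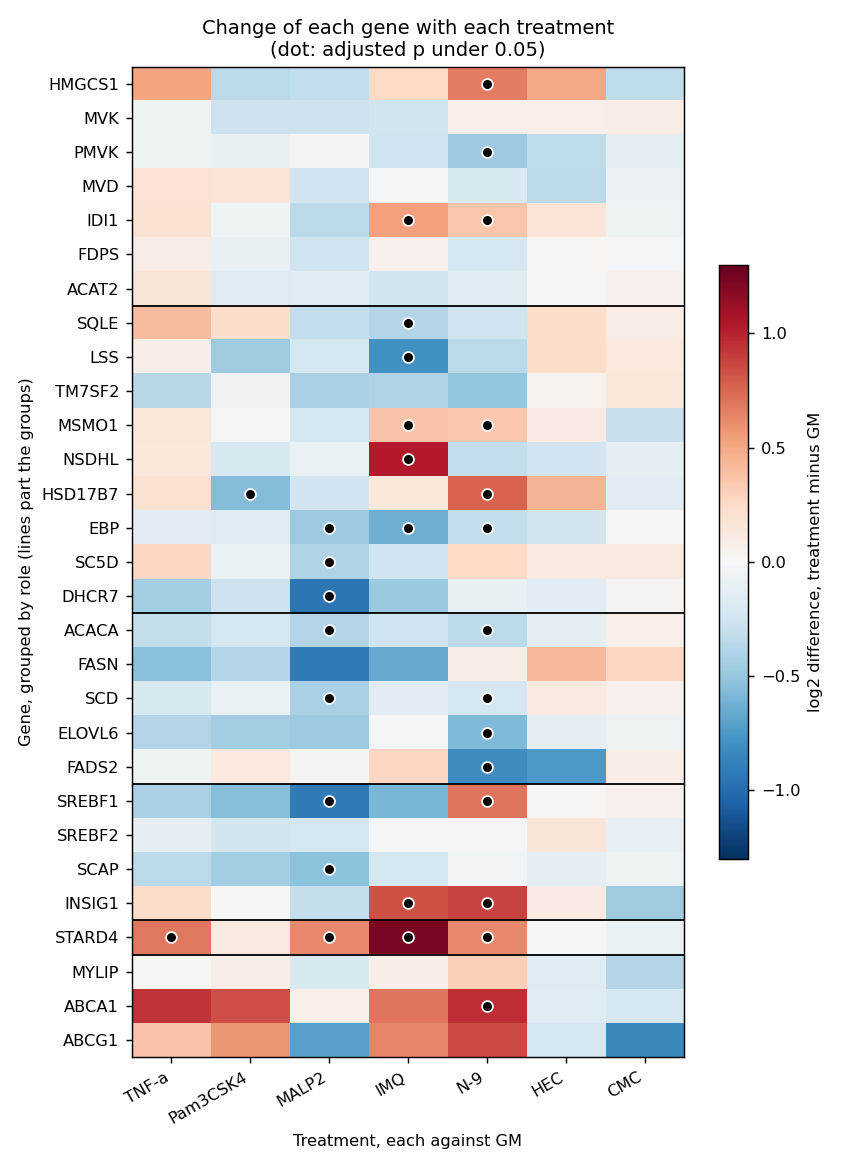
Colour gives the log2 change of each of the 29 genes (rows, grouped by role) with each treatment against GM (columns), and dots mark adjusted p under 0.05. Dots lie mostly under MALP2, IMQ and N-9, with higher (red) and lower (blue) calls mixed within the mevalonate and sterol genes, and the 6 calls among the fatty acid genes all lower.

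The widest change from GM among the 29 genes was that of STARD4, which carries sterol between membranes, with IMQ. STARD4 had a lowest, median and highest level of 11.55, 11.75 and 11.99 on IMQ arrays, against 9.89, 10.59 and 11.54 on GM arrays. This was the only gene and treatment of the 203 pairs without overlap with GM. Of all probesets, 0.635% had their IMQ arrays wholly above GM and 0.229% wholly below. The change was 1.23 ± 0.15 (SE), a 2.34-fold higher signal (adjusted p = 6.07e-10, and 1.21e-07 with the run block). It was also the single call of any of the genes with any treatment when each run was reduced to its mean (adjusted p = 0.0205), a setting that called 0.546% of all probesets higher and 0.439% lower with IMQ.

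NSDHL, a decarboxylating dehydrogenase of the sterol arm, ranged over 11.49, 12.02 and 12.70 with IMQ, against 9.92, 11.05 and 11.76 with GM. Its change of 1.03 ± 0.24 (adjusted p = 0.000855, and 0.00458 with the run block) came with a split between runs: replicates 1 to 3 lay at 12.47 to 12.70 and replicates 4 to 6 at 11.49 to 11.57, inside the GM range. Without replicates 1 to 3 it was 0.51 (adjusted p = 0.498). The second NSDHL probeset was also called higher, by 0.84.

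INSIG1, the sterol-sensing anchor of SCAP, had 12.41, 12.83 and 13.46 with IMQ, against 10.92, 12.32 and 12.85 with GM, a change of 0.83 ± 0.27 (adjusted p = 0.028, and 0.0812 with the run block). Its 3 highest IMQ arrays, replicates 1 to 3, exceeded every GM array, and the other 3 did not. IDI1, the isomerase that makes the activated isoprene unit, had 12.85, 13.01 and 13.40 with IMQ, against 11.88, 12.54 and 13.01 with GM, a change of 0.53 ± 0.14 (adjusted p = 0.00633, and 0.0359 with the run block). The IDI1 and HSD17B7 probesets used here are of the type that can bind near-identical copies, so their values are less certain than the others. MSMO1, the methyl oxidase of the sterol arm, had 13.93, 14.09 and 14.22 with IMQ, against 13.25, 13.77 and 14.19 with GM, a change of 0.37 ± 0.13 (adjusted p = 0.0482, and 0.267 with the run block).

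Sterol enzymes also fell with IMQ. EBP, the sterol isomerase, had 11.40, 11.79 and 11.96 on IMQ arrays, against 11.41, 12.38 and 12.84 on GM arrays, a change of -0.63 ± 0.11 (adjusted p = 7.98e-06, and 0.000898 with the run block). Lanosterol synthase, LSS, which closes the sterol rings, had 10.83, 10.91 and 11.02, against 10.53, 11.69 and 12.61 with GM, a change of -0.78 ± 0.19 (adjusted p = 0.00203, and 0.00909 with the run block). Squalene epoxidase, SQLE, had 12.49, 12.77 and 13.06, against 12.37, 13.14 and 13.68 with GM, a change of -0.38 ± 0.12 (adjusted p = 0.0188, and 0.0743 with the run block). All 6 IMQ arrays were below the GM median for each of these 3 genes, although the groups overlapped. The sterol arm thus held 2 of 9 genes called higher and 3 of 9 called lower with IMQ. STARD4 and EBP were called with either IMQ run left out, and the other 6 IMQ calls missed the threshold without at least 1 run. INSIG1, IDI1 and MSMO1 changed by 0.39, 0.36 and 0.29 without replicates 1 to 3 (adjusted p = 0.705, 0.40 and 0.494), SQLE by -0.15 without replicates 4 to 6 (0.63), and LSS missed the threshold both without replicates 1 to 3 (adjusted p = 0.0551) and without replicates 4 to 6 (0.0639). Without replicates 4 to 6, NSDHL, INSIG1 and IDI1 were still called, while MSMO1 was not, at a change of 0.45 (adjusted p = 0.10). Replicates 1 to 3, without which NSDHL, INSIG1 and IDI1 were not called, were also the IMQ arrays with the higher beta-actin 3′ minus 5′ difference, whose part in these calls was not tested. None of the 5 fatty acid genes was called with IMQ, where their median change was -0.15, and in the mevalonate arm IDI1 was the 1 gene called of 7.

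**Figure D2:**
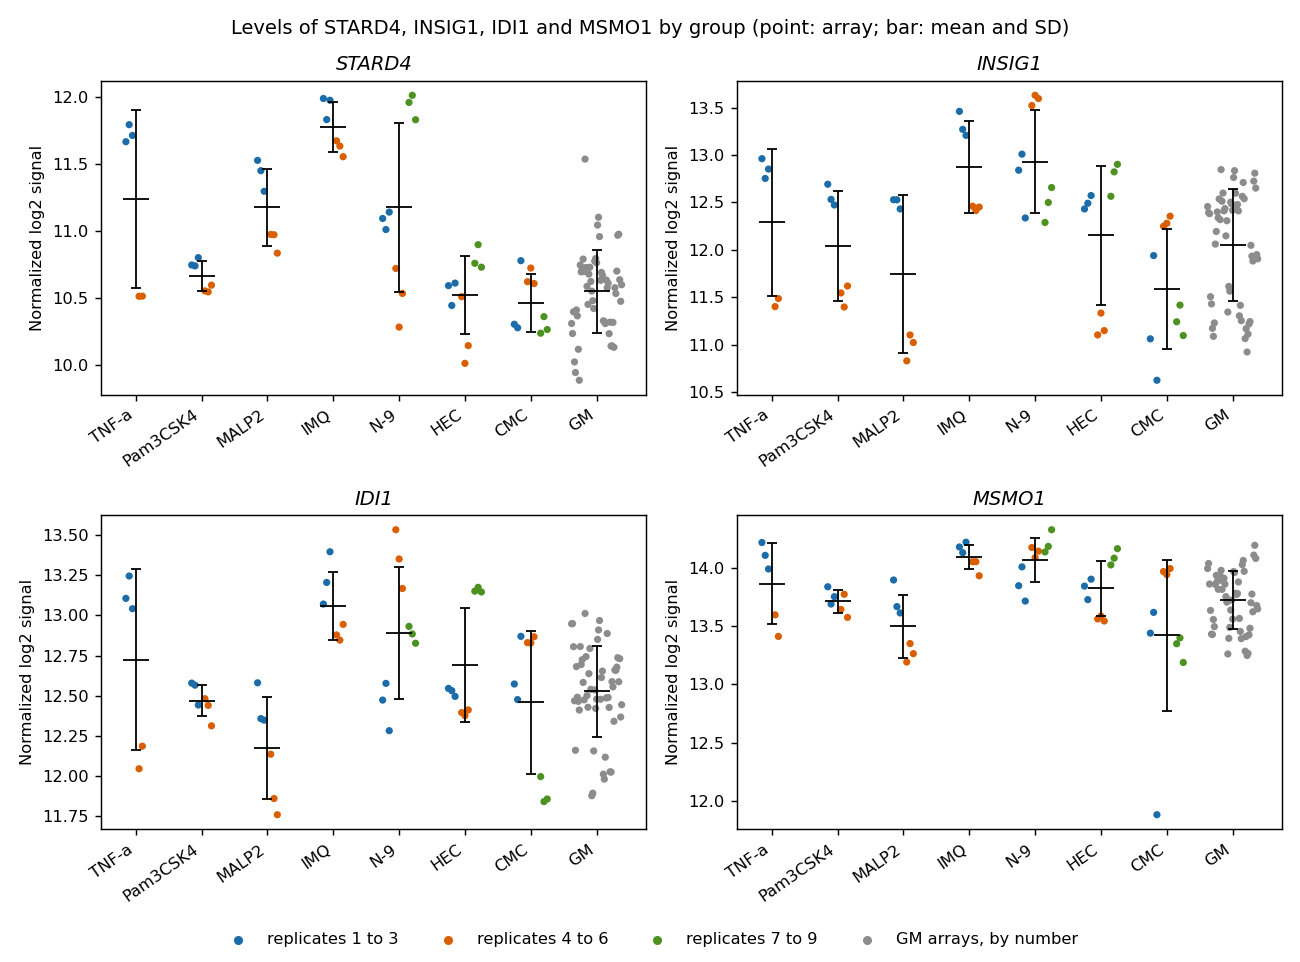
Each point is the normalized log2 signal of STARD4, INSIG1, IDI1 or MSMO1 on 1 array, coloured by run for the treated groups and grey for GM, with bars at the group mean and SD. The IMQ points of STARD4, from 11.55 to 11.99, lie above all GM points, while the N-9 points of STARD4 and INSIG1 fall into separate runs.

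With N-9, 2 of 4 regulators, 2 of 7 mevalonate enzymes, 2 of 9 sterol enzymes, STARD4 and 1 of 3 receptor targets were called higher, and 4 of 5 fatty acid enzymes, 1 mevalonate and 1 sterol enzyme lower. INSIG1 had 12.29, 12.84 and 13.63 on N-9 arrays, against 10.92, 12.32 and 12.85 on GM arrays, a change of 0.88 ± 0.22 (adjusted p = 0.00195, and 0.00829 with the run block). Replicates 4 to 6, at 13.52 to 13.63, were the highest, and without them the change was 0.56 (adjusted p = 0.146). All 3 INSIG1 probesets were called higher with N-9, by 0.88, 0.99 and 1.95.

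HSD17B7, the ketosteroid reductase of the sterol arm, was the gene with the smallest adjusted p with N-9. It had 11.06, 11.28 and 12.14 with N-9, against 10.03, 10.69 and 11.42 with GM, a change of 0.77 ± 0.13 (adjusted p = 1.95e-06, and 1.00e-04 with the run block). All 9 N-9 arrays were above the GM median, and the call held with each run left out in turn, at changes of 0.55 to 0.92. The run means of HSD17B7 were 11.14, 11.88 and 11.32 with N-9, and 11.35, 10.86 and 11.14 with HEC. Those of GM replicates 1 to 9 were 11.14, 10.87 and 10.79, above the mean of 10.68 over all GM arrays. HSD17B7 was not called between N-9 and HEC. Each of the other 13 N-9 calls missed the threshold without at least 1 of the 3 runs. HMGCS1, the synthase at the entry of the mevalonate arm, had 12.23, 12.50 and 12.84, against 10.27, 11.82 and 12.95 with GM, a change of 0.66 ± 0.23 (adjusted p = 0.0304, and 0.0909 with the run block). STARD4 had 10.28, 11.09 and 12.01 with N-9, against 9.89, 10.59 and 11.54 with GM, a change of 0.63 ± 0.13 (adjusted p = 8.80e-05, and 0.00135 with the run block). Its N-9 arrays fell into 3 levels, with replicates 7 to 9 at 11.83 to 12.01 above every GM array and replicates 4 to 6 at 10.28 to 10.72 around the GM median. Without replicates 7 to 9 the change was 0.25 (adjusted p = 0.204).

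SREBF1, which encodes the SREBP that favours fatty acid genes, was called higher with N-9 on the strength of 1 run. It had 8.65, 9.26 and 11.58 on N-9 arrays, against 7.60, 9.15 and 10.47 on GM arrays, a change of 0.70 ± 0.25 (adjusted p = 0.0406, and 0.102 with the run block). Replicates 4 to 6 lay at 11.44 to 11.58, above every GM array, and the other 6 at 8.65 to 9.63. Without replicates 4 to 6 the change was -0.13 (adjusted p = 0.80). HEC replicates 4 to 6, at 10.04 to 10.31, and GM replicates 4 to 6, at 10.28 to 10.47, also stood high for their groups. ABCA1, the cholesterol exporter, showed the reverse layout. It had 7.91, 10.72 and 11.69 with N-9, against 7.06, 9.58 and 10.59 with GM, a change of 0.96 ± 0.33 (adjusted p = 0.0319, and 0.0827 with the run block). Replicates 4 to 6 were at 7.91 to 8.54, and the other 6, at 10.67 to 11.69, all exceeded the highest GM array. ABCA1 was also low in the same-numbered arrays of HEC, at 8.05 to 8.45, and of GM, at 8.23 to 8.63; what these numbers share was not tested. Without replicates 4 to 6 the ABCA1 change was 1.97 (adjusted p = 1.16e-05) and that of the exporter ABCG1 was 1.74 (adjusted p = 0.00194), where ABCG1 with all 9 arrays changed by 0.86 (adjusted p = 0.117). ABCG1 had 6.22, 8.50 and 10.32 on N-9 arrays, against 5.82, 7.09 and 10.57 on GM arrays.

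Of the fatty acid genes, 4 of 5 were called lower with N-9. ELOVL6, an elongase of saturated and monounsaturated chains, had 10.27, 10.81 and 11.37, against 10.55, 11.32 and 12.24 with GM, a change of -0.57 ± 0.16 (adjusted p = 0.00416, and 0.0427 with the run block). The desaturase FADS2 had 6.66, 7.57 and 8.31, against 6.70, 8.01 and 9.86 with GM, a change of -0.80 ± 0.30 (adjusted p = 0.0495, and 0.15 with the run block). Its GM run means fell into a lower level, 7.46 to 8.23, and an upper level, 9.23 to 9.82. The run means of N-9 (7.53, 7.12 and 8.10) and of HEC (8.14, 7.53 and 7.25) all lay under the upper level. Over run means FADS2 changed by -0.79 with N-9 and by a similar -0.74 with HEC. Acetyl-CoA carboxylase, ACACA, changed by -0.35 and the desaturase SCD by -0.22 (adjusted p = 0.00496 and 0.0114; 0.0396 and 0.0734 with the run block). For SCD the call rested on the brighter pair of its 4 probesets, and the mean of all 4 changed by 0.04. FASN, the fatty acid synthase, was not called: replicates 4 to 6 had 13.24 to 13.39 and the other 6 arrays 9.85 to 10.95, on either side of the GM median of 11.03. Of the remaining calls with N-9, the kinase PMVK changed by -0.47 and EBP by -0.32, while IDI1 changed by 0.36 and MSMO1 by 0.35 (adjusted p = 0.000247, 0.00879, 0.0223 and 0.0156). With the run block, PMVK was the 1 gene of these 4 still called (adjusted p = 0.00215, against 0.0727, 0.0853 and 0.124 for EBP, IDI1 and MSMO1). The PMVK change was -0.28 without replicates 1 to 3 (adjusted p = 0.111), and it was 0.08 when GM replicates 1 to 9 alone served as the control.

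**Figure D3:**
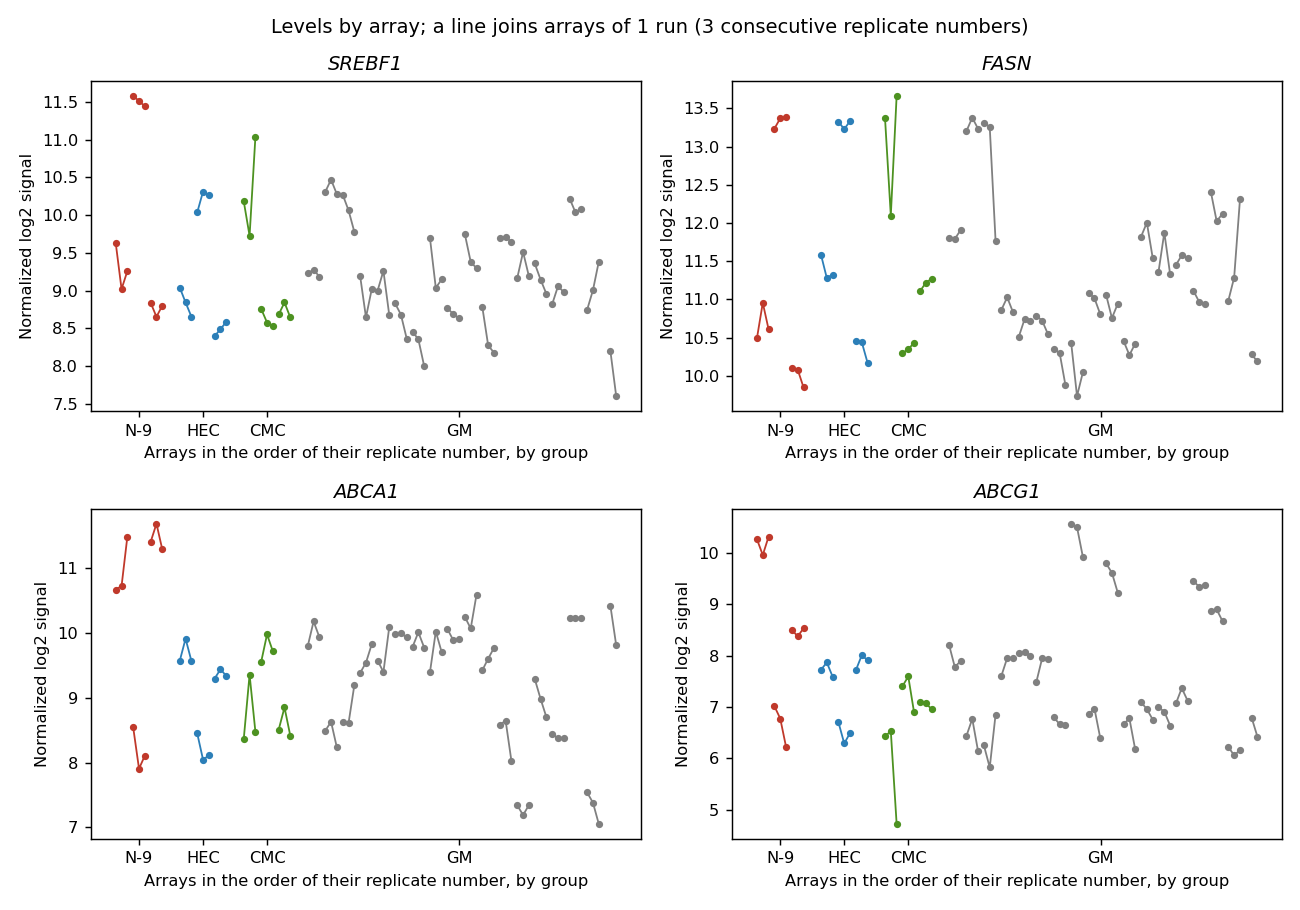
The normalized log2 signal of SREBF1, FASN, ABCA1 and ABCG1 is plotted by array in the order of replicate numbers for N-9, HEC, CMC and GM, and lines join the arrays of 1 run. SREBF1 and FASN are high, and ABCA1 and ABCG1 low, in replicates 4 to 6 of N-9 (SREBF1 11.44 to 11.58, ABCA1 7.91 to 8.54).

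MALP2 was followed mainly by lower calls, 3 of 9 in the sterol arm, 2 of 5 in the fatty acid arm and 2 of 4 among the regulators. SCD, the desaturase that makes oleic acid, had 13.55, 13.78 and 13.88 on MALP2 arrays, against 13.80, 14.15 and 14.53 on GM arrays, a change of -0.43 ± 0.08 (adjusted p = 6.59e-05, and 0.00247 with the run block). All 4 SCD probesets were called lower with MALP2. DHCR7, the last reductase of the sterol arm, had 9.47, 9.74 and 10.09, against 9.84, 10.58 and 11.62 with GM, a change of -0.94 ± 0.22 (adjusted p = 0.00177, and 0.0112 with the run block), and its second probeset fell by 0.86. EBP had 11.59, 11.94 and 12.26, against 11.41, 12.38 and 12.84 with GM, a change of -0.48 ± 0.11 (adjusted p = 0.00175, and 0.035 with the run block). These 3 genes kept their lower call with the run block, and all 6 MALP2 arrays of each were below the GM median.

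SC5D, the desaturase before DHCR7, had 11.24, 11.41 and 11.52 with MALP2, against 10.74, 11.82 and 12.25 with GM, a change of -0.39 ± 0.12 (adjusted p = 0.0204, and 0.0938 with the run block). ACACA had 10.34, 10.47 and 10.58, against 10.40, 10.79 and 11.28 with GM, a change of -0.38 ± 0.11 (adjusted p = 0.0231, and 0.139 with the run block). SREBF1 had 7.95, 8.26 and 8.53 with MALP2, against 7.60, 9.15 and 10.47 with GM, a change of -0.91 ± 0.30 (adjusted p = 0.0476, and 0.164 with the run block). SCAP, its escort, had 7.86, 8.30 and 8.60, against 8.04, 8.74 and 9.77 with GM, a change of -0.54 ± 0.16 (adjusted p = 0.0285, and 0.197 with the run block). All 6 MALP2 arrays were below the GM median for these 4 genes as well, but the calls did not hold with the run block. Of the MALP2 calls, that of SCD held with either run left out, and the other 7 missed the threshold without at least 1 run. STARD4 was the 1 gene called higher with MALP2, with 10.84, 11.14 and 11.53, against 9.89, 10.59 and 11.54 with GM, a change of 0.63 ± 0.15 (adjusted p = 0.00299, 0.0247 with the run block and 0.426 without replicates 1 to 3). FASN was lower on all 6 MALP2 arrays than the GM median but was not called, with a change of -0.92 ± 0.42 (adjusted p = 0.206).

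**Figure D4:**
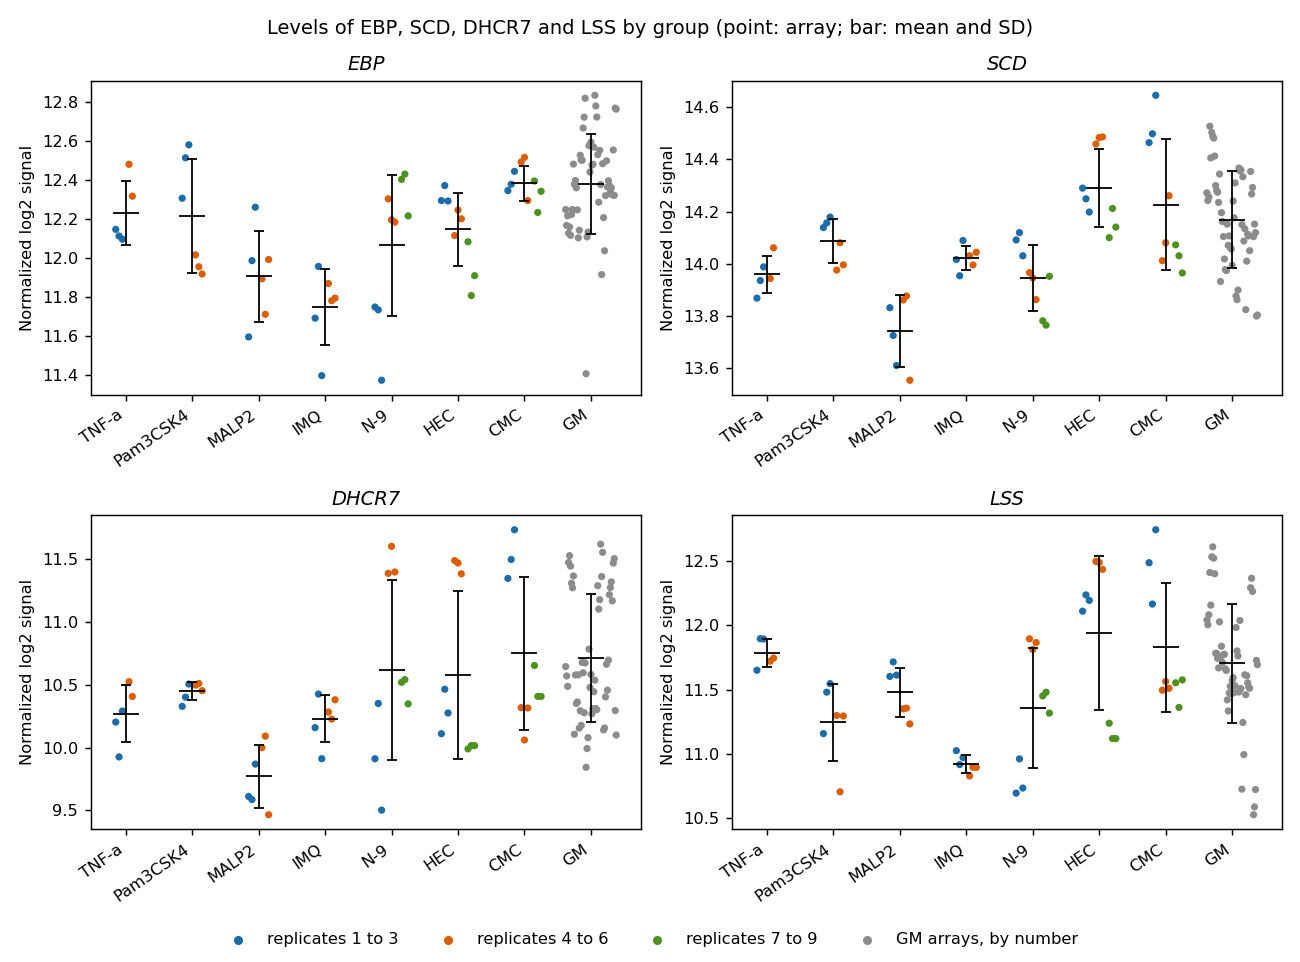
Each point is the normalized log2 signal of EBP, SCD, DHCR7 or LSS on 1 array, coloured by run for the treated groups and grey for GM, with bars at the group mean and SD. For SCD and DHCR7 the 6 MALP2 points sit at the low end, SCD from 13.55 to 13.88 and GM from 13.80 to 14.53, and for LSS the 6 IMQ points lie between 10.83 and 11.02.

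With TNF-a, STARD4 was the 1 gene called, higher by 0.69 ± 0.17 (adjusted p = 0.0172, and 0.212 with the run block). Its 5 arrays read 11.67, 11.79, 11.71, 10.51 and 10.52, against 9.89, 10.59 and 11.54 at the lowest, median and highest of GM. Replicates 1 to 3 exceeded every GM array, replicates 4 and 5 lay just under the GM median, and without replicates 1 to 3 the change was -0.04 (adjusted p = 0.997). With Pam3CSK4, HSD17B7 was the 1 gene called, with 9.87, 10.12 and 10.32, against 10.03, 10.69 and 11.42 with GM, a change of -0.57 ± 0.15 (adjusted p = 0.0263, and 0.168 with the run block). Neither call held with the run block.

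No gene was called with HEC or CMC by limma. At an unadjusted p under 0.05, 7 genes passed with HEC and 3 with CMC, which is 24.1% and 10.3% of the 29, against 15.4% and 7.14% of all probesets. Of all probesets, 0.328% were called higher and 0.465% lower with HEC, and 0% higher and 0.00183% lower with CMC. The HEC changes nearest to a call were those of HSD17B7, at 0.44 ± 0.13 (adjusted p = 0.0732), and PMVK, at -0.33 ± 0.10 (adjusted p = 0.0969). Without replicates 4 to 6 of HEC, HMGCS1 was called higher by 1.04, and without replicates 7 to 9 PMVK and NSDHL were called lower and LSS higher. Without replicates 4 to 6 of CMC, MSMO1 was called lower; CMC replicate 3 had 11.88 for MSMO1, where the other CMC arrays had 13.19 to 13.99.

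The other regulators and receptor targets were called in none of the 7 treatments. SREBF2, which encodes the SREBP that favours sterol genes, changed by between -0.24 and 0.15, although its second-brightest probeset rose by 0.34 with N-9. On IMQ arrays SREBF2 had 8.77, 9.30 and 9.93, on N-9 arrays 8.98, 9.33 and 9.72, on MALP2 arrays 8.44, 9.09 and 9.61, and on GM arrays 8.70, 9.28 and 10.17. MYLIP, the ubiquitin ligase, was dim, with 6.78, 7.03 and 7.30 on IMQ arrays, 6.15, 6.75 and 8.72 on N-9 arrays, 6.43, 6.75 and 7.27 on MALP2 arrays, and 5.08, 7.12 and 8.28 on GM arrays. Not called in any treatment were also the enzymes MVK, MVD, FDPS, ACAT2 and TM7SF2, and FASN and ABCG1. For MVK this rested on the brightest probeset, since the pair of dimmer ones fell with MALP2 by 0.74 and 1.44 and with IMQ by 0.56 and 1.34.

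In all, 6 direct contrasts set treatments against each other. IMQ and N-9 differed at 5 genes, 2 higher with IMQ (6.9%, against 5.56% of all probesets) and 3 lower (10.3%, against 5.2%). NSDHL stood at 11.49, 12.02 and 12.70 with IMQ, against 9.69, 10.56 and 11.70 with N-9, a difference of 1.36 ± 0.29 (adjusted p = 0.000462, and 0.00338 with the run block). STARD4 was 0.60 higher with IMQ than with N-9, while HSD17B7 was lower by 0.64, SC5D by 0.52 and SREBF1 by 1.29 (adjusted p between 0.00867 and 0.0233), and these 4 were not called with the run block. N-9 and HEC differed at STARD4, higher with N-9 by 0.65, and at SQLE and SCD, lower by 0.49 and 0.34 (adjusted p between 0.00428 and 0.00463, and between 0.0262 and 0.0406 with the run block), where 3.79% of all probesets were called higher and 4.81% lower. Of the genes called with N-9 against GM, only STARD4 and SCD were thus also called against HEC.

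MALP2 was lower than IMQ at IDI1 by 0.88, at MSMO1 by 0.60 and at NSDHL by 1.12 (adjusted p = 0.00227, 0.0457 and 0.0367). Of these, IDI1 was called with the run block (adjusted p = 0.0256). Of all probesets, 1.06% were called higher and 0.98% lower in that contrast. MALP2 was lower than TNF-a at SQLE by 0.73 and at SC5D by 0.66 (adjusted p = 0.0146 and 0.0458), against 0.168% of probesets called higher and 0.0806% lower. Neither gene was called with the run block. MALP2 and Pam3CSK4 differed at none of the 29 genes by limma, where 0.0989% of all probesets were called higher and 0.112% lower. At an unadjusted p under 0.05, 7 genes passed in that contrast (24.1%, against 7.31% of all probesets). HEC and CMC differed at none of the genes, and at 0% of all probesets in either direction, with 4 genes at an unadjusted p under 0.05 (13.8%, against 7.1% of all probesets).

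With the runs as a random block, 3 genes were called higher and 3 lower with N-9 (HSD17B7, INSIG1 and STARD4; PMVK, ACACA and ELOVL6), against 3.45% and 5.37% of all probesets. With IMQ, 3 were called higher and 2 lower (STARD4, NSDHL and IDI1; EBP and LSS), against 2.44% and 2.86%. With MALP2, 1 was called higher and 3 lower (STARD4; SCD, DHCR7 and EBP), against 1.73% and 1.28%.

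Levels also varied widely among untreated cells. Over the 53 GM arrays the widest SD was that of ABCG1, at 1.24, followed by ABCA1 at 0.95, FADS2 at 0.93 and FASN at 0.91, and the narrowest that of SCD, at 0.19. Over the 18 GM run means, SREBF1 correlated with SCD (Pearson r = 0.884), ACACA (0.884) and FASN (0.844), and INSIG1 with MSMO1 (0.917) and STARD4 (0.834), and HMGCS1 with MSMO1 (0.846) and SC5D (0.84). NSDHL ran opposite to SREBF1 (r = -0.817) and PMVK opposite to FASN (-0.777). The median over all 406 pairs was 0.058, and over the 120 pairs of mevalonate and sterol enzymes 0.114. These correlations describe runs that may share culture and array processing and carry no p. In the 6 arrays of GM replicates 4 to 9, FASN read 11.77 to 13.38, against a GM median of 11.03, and SREBF1 9.78 to 10.47, against a GM median of 9.15.

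**Figure D5:**
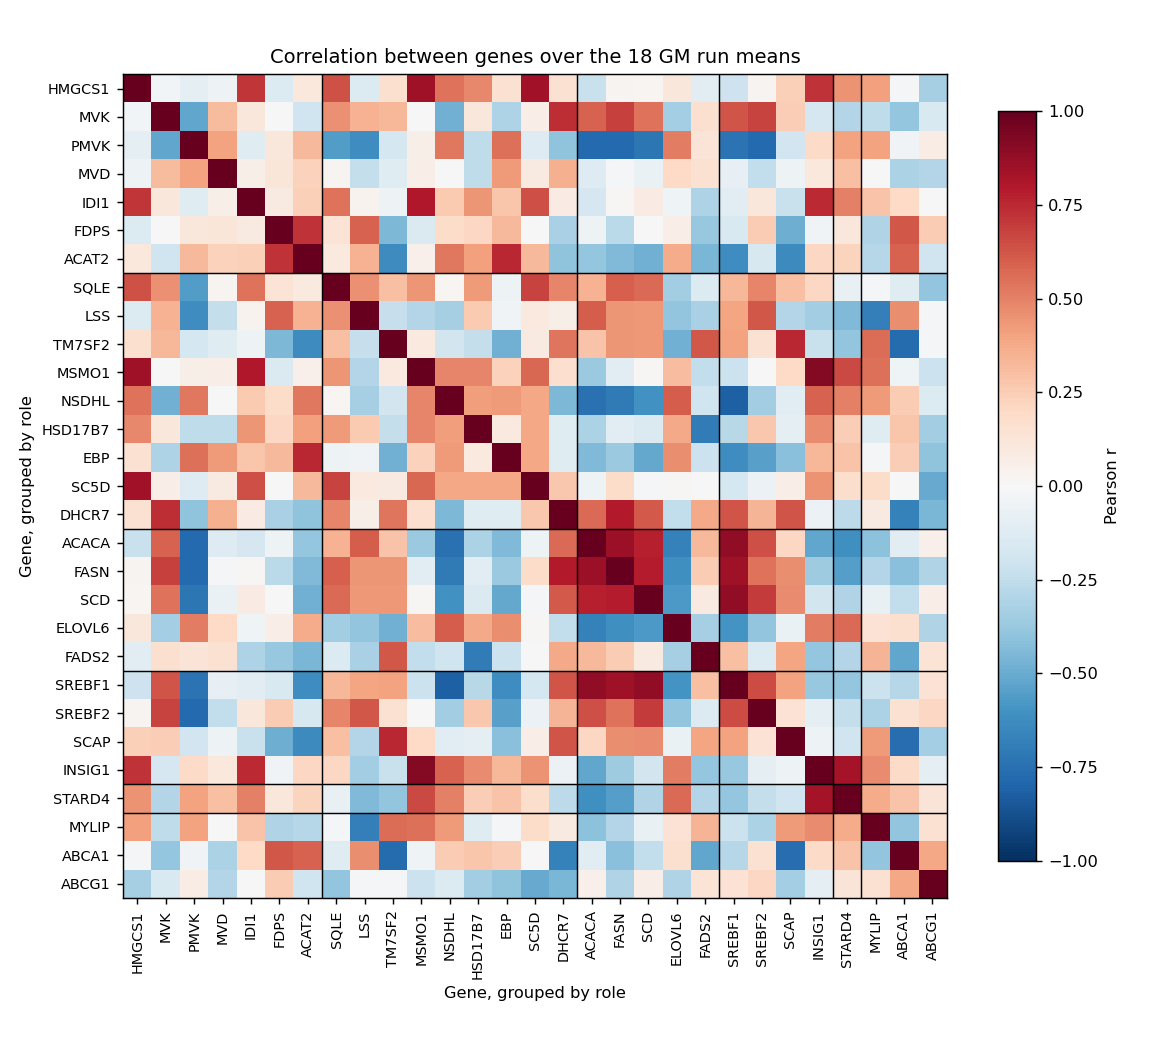
Colour gives Pearson r between each pair of the 29 genes over the 18 GM run means, with genes grouped by role. Pairs among SREBF1, FASN, ACACA and SCD have r between 0.777 and 0.884, pairs among INSIG1, MSMO1, HMGCS1 and IDI1 between 0.711 and 0.917, and SREBF1 with NSDHL -0.817.

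Other genes of the pathway, a list of 22 of which 20 had a probeset, were called mostly in the same treatments. With IMQ, 2 of 20 were called higher and 3 lower (against 4.68% and 6.19% of all probesets). TMEM97, a sterol-responsive membrane protein, had 9.75, 10.00 and 10.12 at its lowest, median and highest with IMQ, against 10.51, 11.46 and 12.32 with GM, a change of -1.51 ± 0.17 without overlap (adjusted p = 9.99e-12, and 3.68e-10 with the run block). INSIG2, a relative of INSIG1 that also anchors SCAP, had 9.86, 10.19 and 10.77 with IMQ, against 8.31, 9.10 and 9.64 with GM, a change of 1.22 ± 0.19, also without overlap (adjusted p = 5.60e-07, and 2.80e-05 with the run block). MBTPS2, the protease that makes the final cut of SREBPs, was called higher by 0.68 (adjusted p = 0.0175), a call that was lost with the run block (0.0555).

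With MALP2, 1 of 20 was called higher and 7 lower (against 3.28% and 3.68% of all probesets). TMEM97 fell by 1.17 and the elongase ELOVL5 by 0.80, both without overlap with GM, and INSIG2 rose by 0.88 (adjusted p = 1.67e-06, 2.77e-05 and 0.00785 with the run block). Of all probesets, 0.33% had their MALP2 arrays wholly above GM and 0.0787% wholly below. With N-9, 2 of 20 were called higher and 3 lower, against 7.34% and 10.1% of all probesets, shares near the background. GPAM, which starts glycerolipid synthesis, fell by 0.97, ACLY, which supplies acetyl-CoA in the cytosol, by 0.70, and TMEM97 by 0.66 (adjusted p = 4.54e-06, 7.14e-07 and 0.000937 with the run block). With TNF-a, the sterol-binding lysosomal protein NPC2 was called lower by 0.41 (adjusted p = 0.00705), and with Pam3CSK4 TMEM97 by 0.64 (adjusted p = 0.0201), each 1 of 20 genes, where 0.192% and 0.859% of all probesets were called lower. Both calls were lost with the run block (adjusted p = 0.0501 and 0.0889). None was called with HEC or CMC by limma. At an unadjusted p under 0.05, 1 of 20 genes passed in each, against 15.4% and 7.14% of all probesets.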

How the data were processed

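Gene signals of 105 arrays (Affymetrix U133 Plus 2.0) were deposited as a table of log2 signals of 54675 probesets. MAS5 and GCOS 1.3 appear in the submitters' processing notes, while the study's methods describe RMA; the deposited log2 values have the form of MAS5 signals. Array values carry no read depth, and the number of arrays limits the precision. Group and replicate came from the labels. The GM array that resembled no other (highest r 0.0484) was left out, as was TNF-a replicate 6, which equalled the mean of replicates 1 to 3 to within 7.67e-09, leaving 103 arrays. Their values were quantile normalized and fitted in limma 3.58.1 (R 4.3.3) with a mean per group and empirical Bayes variances. The Benjamini-Hochberg adjustment covered 54613 probesets, without 62 controls, at a threshold of 0.05. The annotation gave 41097 probesets 1 gene, 1801 several and 11777 none. Each gene was represented by its brightest probeset. Members and gene lists were chosen with earlier results of these data known. Every member called was named, with full values for those on which the accounts turn, and of the other pathway genes up to 3 per treatment with the largest called change. Runs entered as a random block (consensus correlation 0.438), were averaged or were left out; the last 2 settings were chosen after seeing the data. The median correlation of arrays' deviations was 0.231 within runs and -0.057 between runs. Other alternatives were no quantile normalization, 16 added to the signals, a filter at a mean of 6, GM replicates 1 to 9 with and without a replicate block, all 105 arrays, the mean over probesets, and the methods' analysis of variance with a fold limit of 2. The fit was tested on simulated data with independent arrays and no runs, so that test cannot show how its p-values behave where runs differ. Some genes of the pathway are not reported here.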

Additional observations from a re-analysis of the deposited data

Results flagged for a closer look

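Of 203 sets of arrays of 1 gene in 1 treatment, 8 (3.94%) held an array far from the rest of its group by Dixon's criterion. Chance gives about 1 in 20 for independent arrays. Arrays of 1 run were close to each other, so that rate need not hold here. ABCG1 at 4.72 and MSMO1 at 11.88 were low in CMC replicate 3. MVD was at 6.19 in N-9 replicate 3. In Pam3CSK4, ACAT2 was at 12.85 and SC5D at 11.57 in replicate 3, ACACA at 10.79 in replicate 5 and NSDHL at 10.46 in replicate 6. MYLIP was at 7.68 in TNF-a replicate 3.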

How the results depend on the processing

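Of the 32 calls against GM, 32 were also made after adding 16 to the signals and 32 with the filter on dim probesets, 27 without quantile normalization, 21 with the mean over probesets, 15 with runs as a random block and 10 with all 105 arrays. With the run block, 0 genes were called with TNF-a, 0 with Pam3CSK4, 4 with MALP2, 5 with IMQ and 6 with N-9, and with run means 0, 0, 0, 1 and 0. The run block called 0.201% of all probesets higher and 0.0201% lower with TNF-a, and 0.419% and 0.0989% with Pam3CSK4. With run means these shares were 0.0348% and 0.00366% with TNF-a and 0.0439% and 0.00183% with Pam3CSK4. They were 0.302% and 0.0879% with MALP2 and 1.17% and 1.53% with N-9, so the counts of 0 were near the background. With all 105 arrays the counts were 0, 0, 1, 3 and 6, and with the analysis of variance and its fold limit 0, 0, 0, 2 and 0. The 13 calls between treatments became 5 with the run block and 0 with run means. With replicates or runs left out, counts were 0 to 1 for TNF-a, 0 to 1 for Pam3CSK4, 3 to 8 for MALP2, 3 to 6 for IMQ, 7 to 14 for N-9, 0 to 3 for HEC and 0 to 1 for CMC. Shares of all probesets are not given for all 105 arrays, the analysis of variance or arrays left out, so these counts have no background. Calls held with each run left out for STARD4 and EBP with IMQ, SCD with MALP2 and HSD17B7 with N-9. With a run left out, STARD4 with TNF-a ranged between -0.0355 and 1.1738, SREBF1 with N-9 between -0.1265 and 1.2481, and MVK with N-9 between -0.3516 and 0.3412.

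Replicate numbers were not taken as pairs, since in no treatment did every same-numbered pair of deviations correlate above 0.1: 6 of 9 did with N-9 (r up to 0.27), 6 of 9 with HEC (up to 0.315) and 0 elsewhere, so that part of the N-9 and HEC arrays deviated with the GM arrays of their number. With GM replicates 1 to 9 alone and no replicate block, 6 genes were called with TNF-a, 10 with Pam3CSK4, 9 with N-9 and 1 with CMC, and with the replicate block 9 with TNF-a, 14 with Pam3CSK4, 15 with MALP2, 17 with IMQ and 1 with CMC. The shares of all probesets called in these settings are not given here, so the counts cannot be set against a background. Without the block, PMVK changed sign, to 0.50 with TNF-a, 0.46 with Pam3CSK4, 0.0806 with N-9 and 0.44 with CMC, as did SREBF1 with N-9, at -0.014. With the replicate block, PMVK was at 0.62 with TNF-a, 0.57 with Pam3CSK4, 0.41 with IMQ, 0.0806 with N-9 and 0.44 with CMC, SREBF2 with IMQ at -0.61, FASN with N-9 at -1.29 and SREBF1 with N-9 at -0.014. With the mean over probesets, SCD with N-9 was at 0.0434. The cause of these shifts was not tested.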
